A study of Quercus robur with 165 samples.

Results

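Lateral roots of pedunculate oak (*Quercus robur*) seedlings were compared between 2 cultivation systems, rhizotrons and containers. The comparison rests on 12 of the 165 RNA-seq libraries of the series. They are all libraries of Dataset 2 (the libraries with no harvest number in their code) that come from normal lateral roots, that is, roots coded neither as thick nor as dying, in a length class sampled under both cultivations. They form 4 groups of 3 libraries: long container, long rhizotron, medium container and medium rhizotron. Every seedling was of the same species and was raised in a greenhouse in peat and perlite, from stored acorns of the lot sown for Dataset 1 the year before. Container seedlings stayed in cells in which air prunes the root tips, and rhizotron seedlings grew in flat chambers with a transparent wall. The methods give a general age of 2 months for the sequenced seedlings, and none for Dataset 2 on its own. The length class was defined by the study on taproots, so long and medium are the class in the code of the sample and not a measured length of the lateral roots. The study describes the 3 samples of a group as independent biological replicates. The question was which genes differ between lateral roots of container-grown and rhizotron-grown seedlings.

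A lateral root starts from pericycle cells inside an older root, breaks through the outer tissues and builds its own meristem, behind which cells elongate and differentiate. Auxin, moved from cell to cell by PIN carriers, sets where such roots form and how they respond to gravity, while ethylene, made from its precursor ACC by ACC oxidases, restrains cell elongation. A container cell stops the taproot early and favours branching, whereas a rhizotron leaves the taproot free to descend. Each library is bulk RNA of root tissue, so fewer cells of a type and less RNA per cell cannot be told apart in any value below.

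The deposited tables identify genes by the assembly's own MSTRG numbers without names. Names were available for 11 genes through the primer table of the study: 9 genes it measured by RT-qPCR and 2 reference genes. The values below are therefore led by these genes, and unnamed identifiers are given sparingly. The 4 genes with the largest cultivation differences among the named ones were *PCC13*, *ACO1*, *GST* and *PIN2*, and their primers are shown because they tie the identifiers MSTRG.32141, MSTRG.24659, MSTRG.31078 and MSTRG.5844 to a transcript. They are written 5′ to 3′ in lower case, with no part marked.
PCC13 forward: ctctatgagagagccgaagaaaa
PCC13 reverse: cgagagatatagtctgtgaactgtgc
ACO1 forward: gtaagtaattccattttgacaatcca
ACO1 reverse: cctacactagaagtgagatccatcc
GST forward: tgaatctagggcaattacagca
GST reverse: gagatcagttccagtttccttga
PIN2 forward: tcttcacaccagaccagtgc
PIN2 reverse: ggaaggaaagtaatggaactgc

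The 12 libraries held between 26779871 and 33101981 expected counts (median 31731376), with 22654 to 23712 genes at 10 counts or more, and the 10 most abundant genes took 4.70% to 8.35% of the counts. How far apart a pair of libraries lay is given as the coefficient of variation of gene counts beyond counting error. It ran from 0.018 to 0.069 within the long container, long rhizotron and medium rhizotron groups and between replicates 2 and 3 of the medium container group. The remaining library, medium container replicate 1, stood apart. It lay 0.262 and 0.263 from the other 2 libraries of its own group but 0.171 to 0.172 from the 3 medium rhizotron libraries. Of 24956 genes tested, 4674 differed at least 2-fold between this library and the mean of replicates 2 and 3, against 663 genes between replicates 2 and 3 themselves. Of the 4450 genes that differed at least 2-fold between the medium rhizotron libraries and container replicates 2 and 3, the library was nearer to the rhizotron mean in 2239 (50.3%). Its label was kept, and results that rest on it are given with and without it. In addition, 6 of the 12 pairs of same-group libraries were closer than 0.05. Summing such near-identical libraries leaves 7 distinct units. That number hangs on the limit, as long rhizotron replicate 1 lay 0.05005 and 0.05058 from replicates 2 and 3. A slightly wider limit would join it to them and leave no replicate of that group either, and was not tried. All 3 medium rhizotron libraries joined into 1 unit, so merged fits hold no replicate of that group. The same holds for medium containers once their replicate 1 is left out. Differences between near-identical libraries still exceeded counting error 1.61 to 3.57 times in variance, which does not tell technical from biological replicates. They were counted as separate samples, as the study describes them, and the p-values then measure a spread that may in part be technical.

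**Figure D1:**
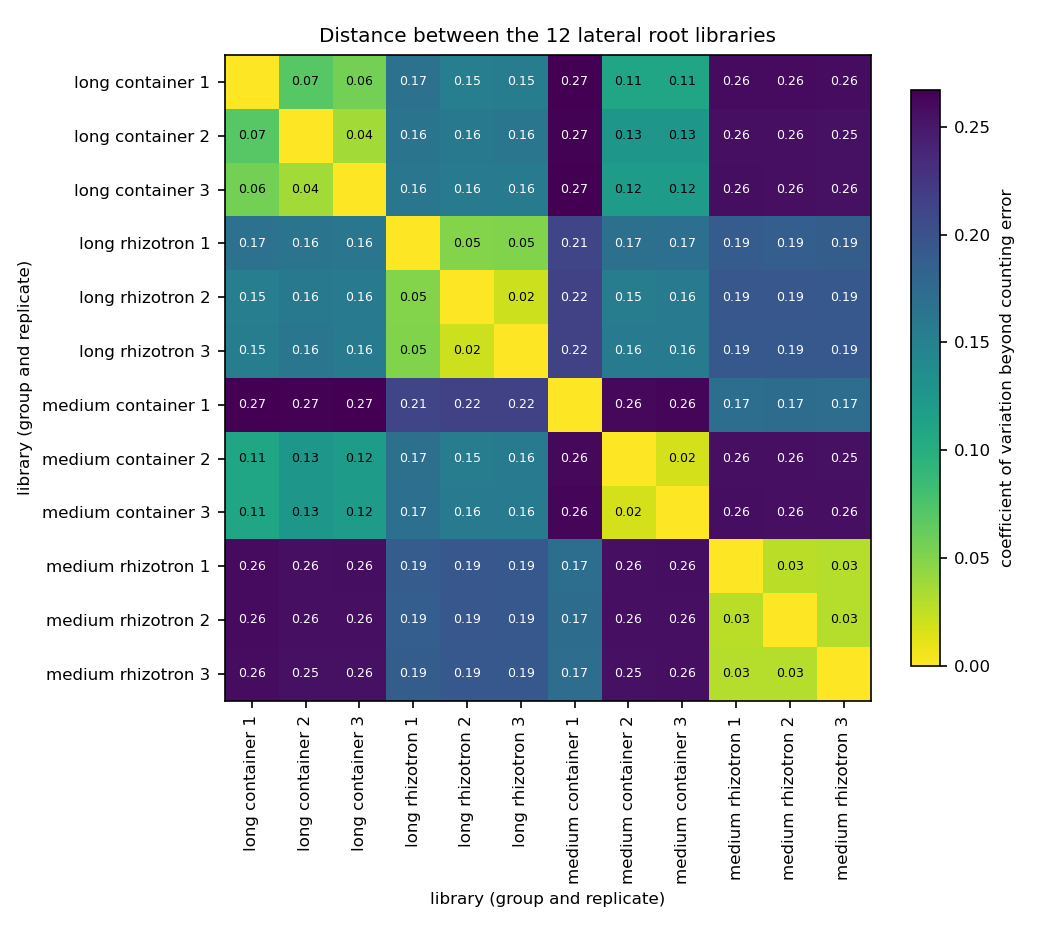
Distance between each pair of the 12 lateral root libraries, as the coefficient of variation of gene counts beyond counting error (colour and printed value); rows and columns are libraries by group and replicate. Medium container replicate 1 lies 0.26 from replicates 2 and 3 of its group and 0.17 from the 3 medium rhizotron libraries.

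The lateral root label was checked with a list of genes from Dataset 1, where lateral roots were set against taproot meristematic zones. Of the 4723 genes higher in lateral roots there, 2203 (46.6%) were higher in all 12 lateral root libraries than in all 12 matched meristematic zone libraries of Dataset 2, against 10.6% of the 34097 genes with counts. Of the 2999 genes lower there, 881 (29.4%) were lower in all 12, against 4.83% of genes, and no gene of either list was separated the opposite way. Against the 12 matched elongation zone libraries the lists separated less: 759 of the higher genes (16.1%) lay above and 42 below, and 279 of the lower genes (9.3%) lay below and 171 (5.7%) above, against 4.75% above and 2.38% below over 34207 genes. The files carry no names from which markers of single cell types could be matched, so the cell make-up of the roots was not examined.

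Rhizotron lateral roots differed from container lateral roots in a large share of the transcriptome, and desiccation-related *PCC13* and ethylene-forming *ACO1* had the lowest adjusted p of the named genes, while *GST* and *PIN2* changed by more than *ACO1*. With the length class as a covariate, 7469 of 24956 genes passed an adjusted p under 0.05 in edgeR's quasi-likelihood test, 3622 higher and 3847 lower in rhizotron roots (29.9% of genes tested, 14.5% higher and 15.4% lower). Most changes were small. The median absolute log2 fold change was 0.49 among the higher genes and 0.53 among the lower ones, and 671 higher (18.5%) and 1119 lower genes (29.1%) changed at least 2-fold. The lower genes held 15.6% ± 2.05 of all TPM in rhizotron and 21.0% ± 2.90 in container libraries (SD, n = 6 each). The higher genes held 19.9% ± 1.79 and 14.7% ± 1.43. In medium container replicate 1 the shares were 15.1% for the lower and 17.6% for the higher genes. Both sets were called on these same libraries, so the direction of these shares is set by that choice and tests nothing.

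The number of calls depended on how the libraries were counted. Leaving out medium container replicate 1 raised it to 12097 (5729 higher, 6368 lower), and 7411 of the 7469 genes (99.2%) kept their call and direction. Summing near-identical libraries into 7 units lowered it to 302 (134 higher, 168 lower), and all of these were among the 7469 genes, in the same direction. With both changes 4399 genes passed, and 3653 of them (83.0%) were among the 7469. All 302 genes also passed with medium container replicate 1 left out of the separate libraries. Their median absolute log2 fold change was 1.53, 234 of them (77.5%) changed at least 2-fold, and in 252 the 6 rhizotron libraries did not overlap with the 6 container libraries, which over all genes was so for 4.38% higher and 3.73% lower. The 302 genes were selected on these same libraries, so this describes them and tests nothing. *PCC13* and *ACO1* are in this set.

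**Figure D2:**
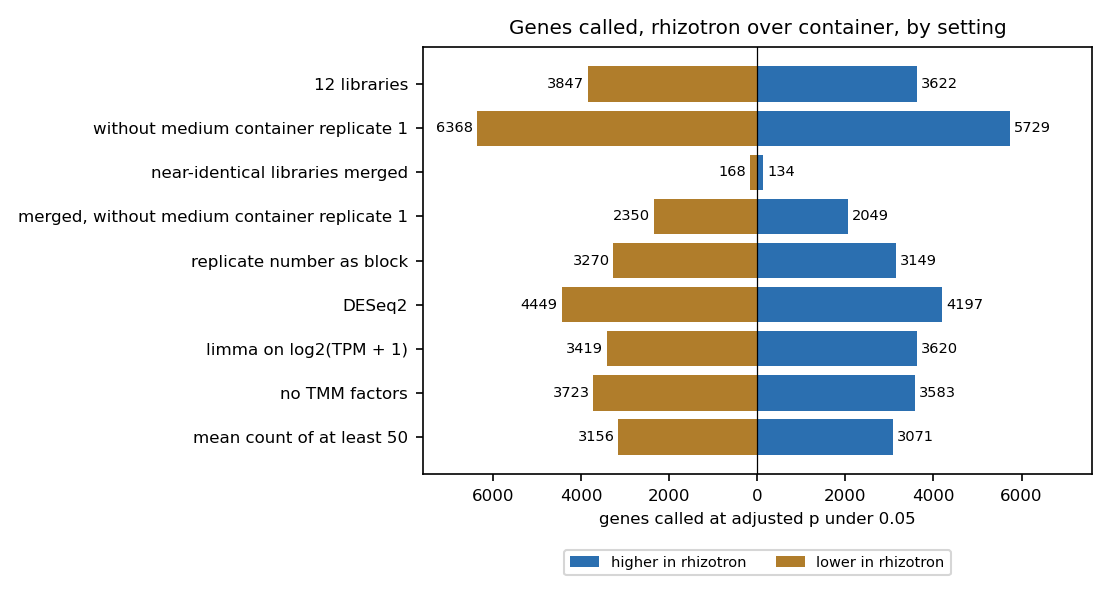
Genes called at an adjusted p under 0.05 in the comparison of rhizotron with container lateral roots, higher to the right and lower to the left, under 9 settings. The 12 libraries gave 3622 higher and 3847 lower genes, the merged libraries 134 and 168.

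*PCC13* (MSTRG.32141) encodes a desiccation-related protein of a family first described in the resurrection plant *Craterostigma*. It was at 22.7, 21.9 and 24.9 TPM in the long container libraries and at 61.0, 60.1 and 61.6 TPM in the long rhizotron libraries. In the medium class it was at 15.9, 23.4 and 23.5 TPM in containers and at 94.2, 99.6 and 95.9 TPM in rhizotrons. The lowest rhizotron library was thus above the highest container library in both classes, and the library that stands apart had the lowest value of all. The mean rose from 23.2 ± 1.57 to 60.9 ± 0.743 TPM in long roots and from 21.0 ± 4.38 to 96.6 ± 2.76 TPM in medium roots (SD, n = 3 each). The log2 fold change over both classes was 1.77 ± 0.15 (SE), a 3.42-fold rise with an edgeR adjusted p of 1.6e-05. It passed under every alternative tried, with log2 fold changes from 1.61 to 1.85 and adjusted p from 5.6e-27 to 0.026.

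*ACO1* (MSTRG.24659) encodes an ACC oxidase, the enzyme of the last step of ethylene synthesis. It was at 64.5, 69.3 and 69.8 TPM in long container roots and at 126.6, 134.5 and 135.2 TPM in long rhizotron roots. Medium roots started higher, at 128.0, 122.5 and 126.5 TPM in containers and 181.5, 182.5 and 187.9 TPM in rhizotrons. Within each class the cultivations did not overlap, but long rhizotron roots overlapped with medium container roots. *ACO1* rose 1.71-fold (log2 0.78 ± 0.07 SE, edgeR adjusted p = 2e-05), and all 21 alternatives passed with adjusted p from 3e-24 to 0.03. The other ACC oxidase, *ACO5* (MSTRG.13653), did not pass over both classes (log2 −0.45 ± 0.21, edgeR adjusted p = 0.12).

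In long roots *ACO5* fell. It was at 145.7, 146.4 and 149.3 TPM in long container roots against 84.9, 80.1 and 80.9 TPM in long rhizotron roots, a fall of 1.84-fold (log2 −0.88, edgeR adjusted p = 0.019). In medium roots, container replicate 1 held 53.9 TPM while replicates 2 and 3 held 131.8 and 131.4 TPM, and the rhizotron libraries lay between them at 95.1, 99.1 and 102.2 TPM. The call over both classes therefore hung on that library: without it *ACO5* fell by 0.64 on the log2 scale with an edgeR adjusted p of 0.00022. In long roots *ACO1* rose (log2 0.96, edgeR adjusted p = 2.4e-06) and passed in all 13 alternatives, while the fall of *ACO5* passed in 10 of 13. It was lost with near-identical libraries merged (adjusted p = 0.32) and without the replicates numbered 2 or 3 (adjusted p = 0.20 each).

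**Figure D3:**
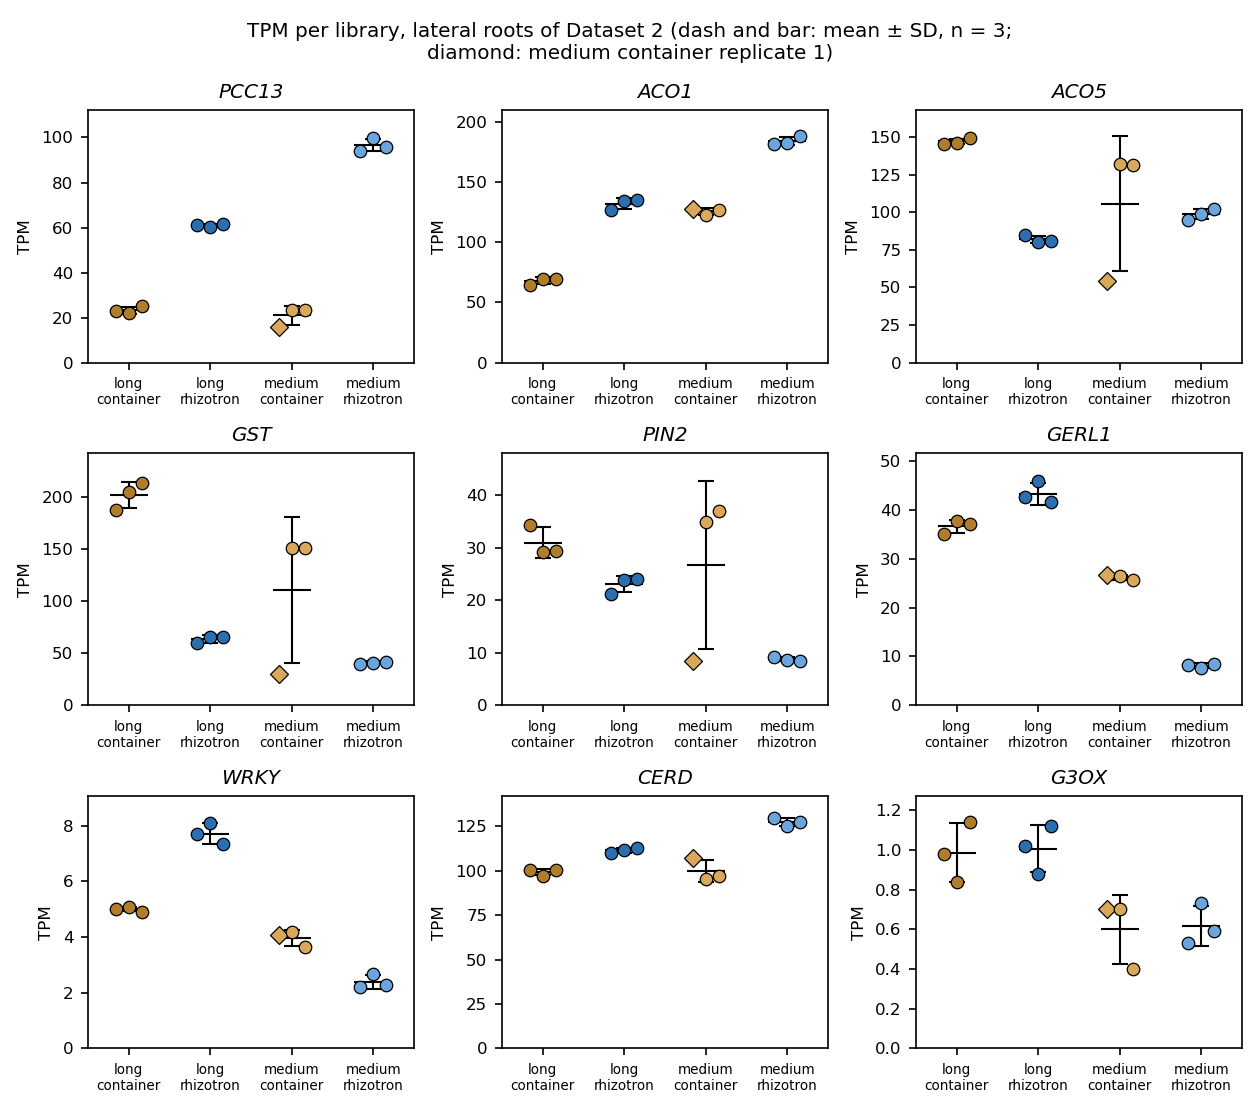
TPM of the 9 RT-qPCR genes in the 12 lateral root libraries, one panel a gene with its own axis from 0, by group; points are libraries, dashes and bars the mean ± SD (n = 3), and the diamond is medium container replicate 1. *PCC13* and *ACO1* separate the cultivations in both classes, while for *GST*, *PIN2* and *ACO5* the diamond lies far below the other medium container libraries.

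*GST* (MSTRG.31078) encodes a glutathione S-transferase, one of the enzymes that couple glutathione to toxic compounds. Its level was 187.9, 205.1 and 213.0 TPM in long container roots and 59.5, 65.9 and 65.7 TPM in long rhizotron roots. In medium roots it was 150.9 and 151.3 TPM in container replicates 2 and 3, 29.8 TPM in container replicate 1, and 39.4, 41.2 and 42.1 TPM in rhizotrons. Except for that one library, every container library lay far above the rhizotron libraries of its class. *GST* fell 2.88-fold (log2 −1.52 ± 0.29 SE, edgeR adjusted p = 0.0025), and 3.35-fold without medium container replicate 1 (adjusted p = 3e-09). With near-identical libraries merged it did not pass (log2 −1.42, adjusted p = 0.20), and with that library left out as well it did (adjusted p = 0.0015).

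*PIN2* (MSTRG.5844) encodes an auxin efflux carrier, which in *Arabidopsis* serves root gravitropism. It was at 34.3, 29.2 and 29.4 TPM in long container roots and at 21.2, 23.9 and 24.0 TPM in long rhizotron roots. Medium container replicates 2 and 3 held 34.8 and 37.1 TPM, replicate 1 held 8.39 TPM, and the medium rhizotron libraries held 9.26, 8.62 and 8.53 TPM. The drop in TPM was deeper in medium roots, where the lone low container library sat at the rhizotron level. The difference between the classes did not pass in the main fit, and passed in 3 of 12 alternatives. In long roots alone the fall did not pass either, with 4 of 13 alternatives passing, against 9 of 13 in medium roots. Over both classes *PIN2* fell 1.97-fold (log2 −0.98 ± 0.30 SE, edgeR adjusted p = 0.028), and 2.18-fold without that library (adjusted p = 0.0015). It did not pass with near-identical libraries merged (adjusted p = 0.40), and 13 of its 21 alternatives passed.

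*CERD* (MSTRG.1646), a neutral ceramidase that cleaves the lipid ceramide, rose slightly. It was at 97.3 to 100.5 TPM in long container roots and 109.8 to 112.9 TPM in long rhizotron roots, and at 95.5 to 107.2 against 125.3 to 129.7 TPM in medium roots. The cultivations did not overlap in either class, but the rise was only 1.21-fold (edgeR adjusted p = 0.0091, and 0.28 with near-identical libraries merged). *G3OX* (MSTRG.22681), the dioxygenase that forms active gibberellin, was near the detection limit at 0.40 to 1.14 TPM in all 12 libraries and did not pass (log2 0.05 ± 0.20, adjusted p = 0.87). In all, 5 of the 9 RT-qPCR genes passed the test, against 29.9% of all genes.

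Of the 2 reference genes, *UBQ* (MSTRG.26207) was at 131.4 to 153.5 TPM in container roots and 148.1 to 155.7 TPM in rhizotron roots and did not pass (log2 0.10 ± 0.06, edgeR adjusted p = 0.26). *EF* (MSTRG.28793) was at 2592 to 2614 TPM in the long container and 2524 and 2517 TPM in medium container replicates 2 and 3, against 2127 to 2141 and 1986 to 1989 TPM in rhizotrons. Medium container replicate 1 held 1794 TPM of it. *EF* did not pass with all libraries (log2 −0.22 ± 0.08, adjusted p = 0.061), and fell by 0.29 on the log2 scale without that library (adjusted p = 0.00011).

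Among the genes without names, those with the largest consistent changes at an average log2 CPM of at least 5 were taken, 8 in each direction, requiring that the 3 rhizotron and 3 container libraries overlap in neither class. The 8 higher genes, *PCC13* among them, had log2 fold changes of 1.24 to 2.01, and the 8 lower genes fell by 1.49 to 2.70. With near-identical libraries merged, 4 of the 8 higher and 6 of the 8 lower genes still passed. By the lack of overlap alone, at any level of expression, 2346 genes (9.40% of those tested) were higher and 1989 (7.97%) lower in all 3 rhizotron libraries of both classes. Without reference to the class, the 6 rhizotron libraries lay above the 6 container libraries in 1092 genes (4.38%) and below them in 931 (3.73%).

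MSTRG.7233 had the largest log2 fold change of these 8 higher genes. It was at 26.1, 31.3 and 25.9 TPM in long container and 255.7, 274.4 and 269.4 TPM in long rhizotron roots. In medium roots it was at 36.8, 74.0 and 74.4 TPM in containers and 103.1, 106.3 and 104.6 TPM in rhizotrons. The rise was 9.21-fold in long roots and 1.80-fold in medium roots (edgeR adjusted p = 2.1e-06 and 0.006), and 4.02-fold over both (adjusted p = 0.0031, and 0.078 with near-identical libraries merged). MSTRG.18058 rose 2.70-fold (adjusted p = 0.00055), from 35.9 to 40.7 TPM to 159.6 to 162.8 TPM in long roots and from 19.1 to 33.3 TPM to 45.7 to 46.1 TPM in medium roots.

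MSTRG.13453 fell 6.51-fold (edgeR adjusted p = 1.6e-05). It was at 50.4, 46.6 and 51.5 TPM in long container and 11.4, 12.5 and 12.1 TPM in long rhizotron roots, and at 15.7, 24.3 and 25.4 against 1.60, 1.75 and 2.26 TPM in medium roots. The classes differed in level, and the cultivations were separated in each. MSTRG.29116 fell 5.23-fold (adjusted p = 2.3e-05), from 83.7 to 89.1 TPM to 19.9 to 21.3 TPM in long roots. In medium roots it was at 25.7, 72.9 and 74.3 TPM in containers and 8.27 to 8.53 TPM in rhizotrons, so that the library that stands apart was intermediate here.

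The most abundant genes changed little. The 5 most abundant genes that were higher in rhizotrons averaged 1163 to 3496 TPM and rose by 0.34 to 0.55 on the log2 scale, and the 5 that were lower averaged 941.5 to 2175 TPM and fell by 0.21 to 0.40. None of these 10 passed with near-identical libraries merged. Genes seen in one cultivation alone were few. With at most 3 counts in each of the 6 libraries of the other cultivation, 2 genes had at least 10 counts in all rhizotron libraries and 19 in all container libraries. The clearest of them had 150.5 to 2572.5 counts in the container libraries and 0 in every rhizotron library.

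The effect of cultivation depended on the length class for *GERL1* and *WRKY*. *GERL1* (MSTRG.23367) encodes a germin-like protein, one of a family of cell wall glycoproteins. It was at 35.0, 37.7 and 37.0 TPM in long container and 42.5, 45.8 and 41.5 TPM in long rhizotron roots. Its medium root values dropped from 26.6, 26.4 and 25.7 TPM to 8.21, 7.64 and 8.52 TPM. Here the library that stands apart lay with its group. The change was log2 0.21 ± 0.09 in long roots (edgeR adjusted p = 0.094) and a 3.39-fold fall in medium roots (log2 −1.76 ± 0.10, adjusted p = 4.2e-07). The difference between the classes was 1.97 ± 0.13 on the log2 scale (adjusted p = 3.1e-06, and 0.039 with near-identical libraries merged).

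*WRKY* (MSTRG.4799), a transcription factor of the WRKY family, rose in long roots from 5.0, 5.07 and 4.92 TPM to 7.70, 8.10 and 7.34 TPM. Its medium root values fell from 4.09, 4.17 and 3.63 TPM to 2.20, 2.66 and 2.28 TPM. Neither class overlapped between cultivations, and over both classes the log2 fold change was −0.01 (edgeR adjusted p = 0.97). The change was a rise of 1.499-fold in long roots (edgeR adjusted p = 0.0029) and a 1.58-fold fall in medium roots (adjusted p = 0.0014), and the difference between them was 1.24 ± 0.16 on the log2 scale (adjusted p = 0.00033, and 0.11 with near-identical libraries merged).

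Across all genes, 5892 of 24956 passed in long roots (2958 higher, 2934 lower; 23.6% of genes, 11.9% higher and 11.8% lower) and 8549 in medium roots (4155 higher, 4394 lower; 34.3%, 16.6% higher and 17.6% lower). Without TMM factors the split in long roots was 3502 higher and 2219 lower. Without medium container replicate 1 the counts were 12557 and 15619. Fitted on the 6 libraries of each class alone they were 11298 in long and 3964 in medium roots, so which class had more calls depended on the fit. Both classes passed in 2957 genes, which is 50.2% of the long list and 34.6% of the medium list, and 2263 of these (76.5%) changed in the same direction. Without medium container replicate 1 the shared genes were 9003, and 7227 of them (80.3%) changed the same way. The classes share no library, so no common control enters this count. Both lists come from the same fit, with a shared estimate of each gene's spread, so they are not independent.

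The difference between the classes itself passed for 4263 genes (17.1%), 2220 with a higher (8.9%) and 2043 with a lower rhizotron effect (8.19%) in long roots. All libraries separated the cultivations upward in long and downward in medium roots in 834 genes (3.34%), and the reverse in 761 (3.05%). Without TMM factors the called differences were 2849 higher and 1471 lower, and that scaling moved the median of all genes from 0.02 to 0.13. Of the 4263 genes, 694 passed in both classes in opposite directions, 312 in both in the same direction with unequal size, 1123 in long roots alone, 1955 in medium roots alone and 179 in neither. The count was 11390 without medium container replicate 1 and 90 with near-identical libraries merged. *PCC13* rose more in medium roots (difference log2 −0.85 ± 0.17, edgeR adjusted p = 0.0045) and *ACO1* more in long roots (0.36 ± 0.09, adjusted p = 0.017), while both rose in each class. The difference of *PCC13* passed in 9 of 12 alternatives and that of *ACO1* in 8 of 12, with adjusted p of 0.28 and 0.49 when near-identical libraries were merged.

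**Figure D4:**
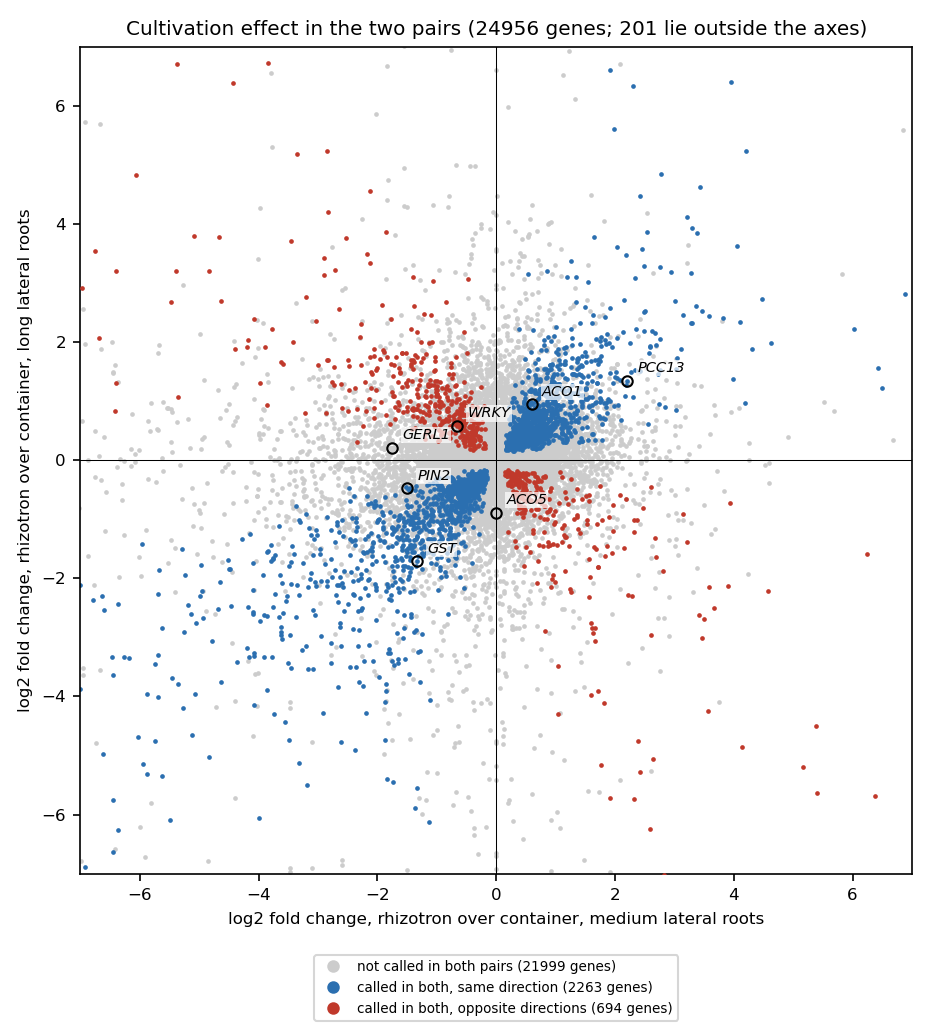
Log2 fold change of rhizotron over container in medium (horizontal axis) and long lateral roots (vertical axis) for 24956 genes, with 201 genes outside the axes. Blue points (2263 genes) passed in both classes in the same direction and red points (694 genes) in opposite directions; circles mark 7 RT-qPCR genes, with *PCC13* and *ACO1* at the upper right, *GST* and *PIN2* at the lower left and *WRKY* among the red points.

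The unnamed gene with the largest class difference toward medium roots was MSTRG.6754. It was at 190.7, 190.1 and 190.2 TPM in medium rhizotron roots and at 26.5 to 36.4 TPM in the other 9 libraries. Medium roots therefore rose 6.12-fold, while long roots fell 1.37-fold (edgeR adjusted p = 5.1e-09 and 0.0011). The largest difference toward long roots, that of MSTRG.15472, rested in part on medium container replicate 1, which held 341.8 TPM against 115.0 and 116.1 TPM in its group and 41.2 to 45.8 TPM in medium rhizotrons. In long roots this gene was at 56.5 to 63.7 TPM in containers and 104.7 to 113.7 TPM in rhizotrons. The difference was log2 2.90 (adjusted p = 0.0023) with that library and 2.13 (adjusted p = 9.6e-15) without it, and did not pass with near-identical libraries merged (adjusted p = 0.19).

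The length class had an effect of its own. Over both cultivations 5120 genes (20.5%) differed between long and medium roots, 2502 higher and 2618 lower in long roots, and 7181 without medium container replicate 1. *GERL1* was higher in long roots by 1.49 on the log2 scale, *WRKY* by 0.97 and *G3OX* by 0.68 (edgeR adjusted p = 0.0063, 0.0067 and 0.032), and *ACO1* was lower by 0.66 (adjusted p = 0.00011). The median share of a gene's variance in log2 CPM was 20.2% for cultivation, 16.3% for length, 7.88% for their interaction and 34.1% between libraries of a group. Without medium container replicate 1 these shares were 30.8%, 17.5%, 11.95% and 15.1%.

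In rhizotron roots, genes that set lateral roots and elongation zones apart from meristematic zones were more often higher, and genes of meristematic zones more often lower, than genes at large. The lists came from other libraries of the series, and each is described here by its counts beside those of all genes (14.5% higher, 15.4% lower, median log2 fold change −0.01). Of the 4391 tested genes that Dataset 1 had higher in lateral roots than in meristematic zones, 1344 (30.6%) were higher and 258 (5.88%) lower in rhizotrons, with a median log2 fold change of 0.25. Of the 2495 genes lower in lateral roots there, 64 (2.57%) were higher and 990 (39.7%) lower, with a median of −0.43.

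The elongation zone list of Dataset 2 taproots gave the same picture, and shares 2077 of its 3026 higher genes and 1406 of its 2524 lower genes with the lateral root list. Of 2734 tested genes higher in elongation than in meristematic zones, 841 (30.8%) were higher and 214 (7.83%) lower in rhizotron lateral roots. Of 2279 genes lower in elongation zones, 49 (2.15%) were higher and 818 (35.9%) lower. Without medium container replicate 1 the lower genes of the lateral root list were 92 higher and 1632 lower of 2581, and those of the elongation list 78 higher and 1480 lower of 2326. Both classes shared these directions, with medians for the lower lateral root genes of −0.32 in long and −0.59 in medium roots.

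A small list of genes that differed between cultivations over taproot meristematic and elongation zones, fitted together, more often changed the same way in lateral roots. That does not extend to each zone: of all calls shared with meristematic zones, 943 of 1891 (49.9%) had the same direction. Of the 78 tested genes at least 2-fold higher in rhizotron taproots of Dataset 2, 33 (42.3%) were higher and 3 lower in rhizotron lateral roots, with a median log2 fold change of 1.04. Of 218 genes lower in rhizotron taproots, 116 (53.2%) were lower and 16 higher, with a median of −1.42. The cultivation list of Dataset 1 lateral roots did not carry over in this way. Its 921 tested higher genes were 189 higher (20.5%) and 144 lower (15.6%), and its 554 lower genes were 158 higher (28.5%) and 66 lower (11.9%).

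The remaining lists concern thick and dying roots, length and harvest. Over all genes tested, 14.5% were higher and 15.4% lower. The lists share genes: 54 of the 122 genes lower in long roots were also lower in thick roots. Of the 915 genes lower in thick roots, 319 were in the higher lateral root list. Of 475 genes higher in thick lateral roots of Dataset 1, 45 (9.47%) were higher and 150 (31.6%) lower in rhizotrons, and of 854 genes lower in thick roots 220 (25.8%) were higher and 108 (12.6%) lower. Of 493 genes higher in dying taproots 66 (13.4%) were higher and 101 (20.5%) lower. Of 1439 genes lower there 163 (11.3%) were higher and 296 (20.6%) lower, so both directions of this list leaned the same way. For the length list of Dataset 1, 8 of 156 genes higher in long roots (5.13%) were higher and 45 (28.8%) lower. Of 114 genes lower in long roots, 30 (26.3%) were higher and 10 (8.77%) lower. Of the genes higher at the second harvest than at the first, 33 of 241 were higher and 28 lower, and of those lower at the second harvest, 139 of 1243 were higher and 315 lower.

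**Figure D5:**
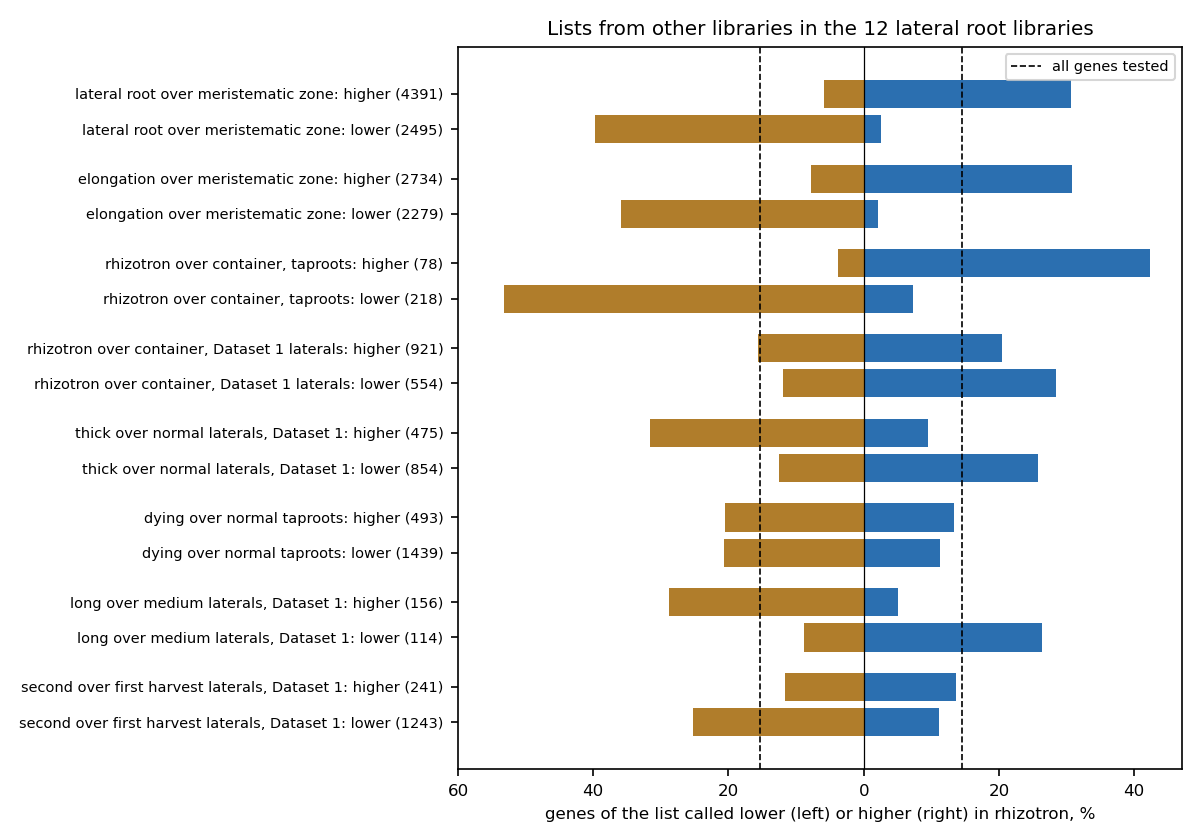
Share of each list's tested genes that were called higher (right, blue) or lower (left, brown) in rhizotron over container lateral roots, in percent; numbers in brackets are genes tested and dashed lines the shares over all genes (14.5% higher, 15.4% lower). The lateral root, elongation zone and taproot cultivation lists lie on opposite sides in their 2 directions, and the cultivation list of Dataset 1 lateral roots does not.

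Lateral roots of Dataset 1 gave the same contrast in other seedlings, in the second harvest, with the same 2 classes and 3 libraries a group. There 4820 of 24257 genes passed (19.9%), 2477 higher (10.2%) and 2343 lower (9.66%) in rhizotrons, and without TMM factors 2642 higher and 1403 lower. Of these, 1659 also passed in Dataset 2, which is 34.4% of the Dataset 1 list and 22.2% of the Dataset 2 list. Over all genes tested, 29.9% passed in Dataset 2 and 19.9% in Dataset 1. The 1659 shared genes changed in the same direction in 737 (44.4%). Without medium container replicate 1 the shared genes were 2572, with 1293 (50.3%) in the same direction. With near-identical libraries merged as well they were 473, with 246 (52.0%) in the same direction. Year and acorn storage differ between the datasets and cannot be told apart here. Whether age differed too is not known, as none is given for Dataset 2 on its own. The Dataset 1 libraries were also shallower, at 21006816 to 24653842 counts, and their 10 most abundant genes took 4.29% to 22.3% of the counts. Libraries of a group lay up to 0.122 apart in long container, 0.159 in long rhizotron, 0.211 in medium container and 0.207 in medium rhizotron roots. What these add to the disagreement was not tested.

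The *PCC13* values had the opposite order in Dataset 1, without passing the test. The gene was at 22.2, 31.5 and 20.6 TPM in long container and 4.61, 4.29 and 42.4 TPM in long rhizotron roots of that dataset, with 1 rhizotron library above all containers. In medium roots it was at 113.5, 153.7 and 163.5 TPM in containers and 29.5, 39.97 and 55.5 TPM in rhizotrons. The Dataset 1 change was log2 −1.26 ± 0.47 (edgeR adjusted p = 0.080), and the difference between datasets was 2.99 ± 0.47 (adjusted p = 7.5e-05, and 0.020 with near-identical libraries merged). For *ACO1* the Dataset 1 change was log2 0.48 ± 0.29 (adjusted p = 0.28), with 79.0 to 85.3 TPM in long containers against 203.3 to 261.4 TPM in long rhizotrons, and lower values in medium rhizotron roots (96.2 to 117.8 TPM) than in medium containers (117.5 to 170.9 TPM).

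The difference between datasets passed for 8244 of 25846 genes (31.9%), 3450 with a higher (13.3%) and 4794 with a lower rhizotron effect (18.5%) in Dataset 2. The naming rule, which asks for an average log2 CPM of at least 5, gave MSTRG.7733 among the lower ones. It went from 163.5 to 176.8 TPM to 46.4 to 48.7 TPM in long roots of Dataset 2 and from 29.8 to 56.0 TPM to at most 16.5 TPM in medium roots. In Dataset 1 it went from 10.9 to 14.2 TPM to 174.9 to 345.3 TPM in long roots and from 6.89 to 10.3 TPM to 15.5 to 19.9 TPM in medium roots (difference log2 −4.39, edgeR adjusted p = 2.3e-11). Among the higher ones without a name, MSTRG.21759 differed by 2.81 (adjusted p = 9.3e-09). It rose in medium roots of Dataset 2 from 19.7 to 24.3 TPM to 92.6 to 94.5 TPM, and fell in Dataset 1 (log2 −1.62, adjusted p = 0.00096), where its cultivations overlapped in neither class.

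Of the 1659 shared calls, 737 (44.4%) had the same direction, fewer than had opposite directions, so the shared calls as a set did not repeat. The genes below were picked for passing in both datasets in the same direction, so their agreement is set by that choice and tests nothing. MSTRG.7233 was at 11.9 to 20.4 TPM in long container and 81.4 to 152.5 TPM in long rhizotron roots of Dataset 1, and at 9.59 to 12.7 against 24.2 to 30.5 TPM in medium roots (log2 1.98 ± 0.28, edgeR adjusted p = 0.00049). MSTRG.33395 rose 2.15-fold in Dataset 2 and 3.503-fold in Dataset 1 (adjusted p = 6.8e-05 and 0.0012). MSTRG.20967 fell 2.63-fold in Dataset 2 (adjusted p = 0.00022), from 46.9 to 84.4 TPM in containers of both classes to 17.6 to 36.2 TPM in rhizotrons. It fell 2.15-fold in Dataset 1 (adjusted p = 0.0014), at 14.0 to 24.1 TPM in containers and 5.47 to 12.1 TPM in rhizotrons. MSTRG.27779 fell in both datasets (adjusted p = 0.010 and 0.0011). In long roots of Dataset 2 it went from 145.2 to 158.9 TPM to 12.9 to 16.5 TPM. In medium roots it was at 139.6, 53.7 and 53.5 TPM in containers and 47.1 to 50.6 TPM in rhizotrons, so that there only the library that stands apart lay well above the rhizotrons (log2 −0.67, adjusted p = 0.12).

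Taproots of Dataset 2, in the same 2 classes, show how far the effect was one of lateral roots. Their elongation zones and lateral roots shared 1013 calls (13.6% of the 7469 and 42.3% of 2396), and 901 of these (88.9%) had the same direction. Meristematic zones and lateral roots shared 1891 calls (25.3% of the 7469 and 34.5% of 5489), with 943 (49.9%) in the same direction. The difference of the rhizotron effect between lateral roots and elongation zones passed for 3813 of 26218 genes (14.5%), 1533 higher (5.85%) and 2280 lower (8.7%) in lateral roots, and limma on log2 TPM gave 2034 and 1790. That between lateral roots and meristematic zones passed for 9583 of 26008 genes (36.8%), 4636 higher (17.8%) and 4947 lower (19.0%), and limma gave 5345 and 3437. The libraries of the taproot groups were not all alike: 1 of the 3 long rhizotron elongation zone libraries lay 0.27 from the other 2, the medium container libraries lay 0.188 to 0.217 apart in elongation zones and 0.169 to 0.23 in meristematic zones, and the long rhizotron meristematic zone libraries up to 0.195.

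The named genes differed most from the meristematic zones. *PCC13* rose in lateral roots and fell in meristematic zones, from 41.0 ± 1.36 to 2.95 ± 0.823 TPM in long and from 14.5 ± 3.01 to 6.497 ± 0.567 TPM in medium taproots (difference log2 4.11 ± 0.19, edgeR adjusted p = 2.4e-11). *ACO1* fell there from 50.9 ± 4.35 to 35.2 ± 1.68 TPM and from 44.2 ± 9.75 to 28.9 ± 2.61 TPM (difference 1.32 ± 0.12, adjusted p = 1.8e-07). *GST* was at 321.3 to 419.3 TPM in container and 413.6 to 615.2 TPM in rhizotron meristematic zones, so its fall was seen in lateral roots (difference −2.03 ± 0.36, adjusted p = 0.00023). *PIN2* likewise was at 26.3 to 41.7 TPM in container and 34.3 to 58.1 TPM in rhizotron meristematic zones (difference −1.48 ± 0.28, adjusted p = 0.00052).

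Against elongation zones fewer named genes differed. *PCC13* differed by 1.53 ± 0.30 on the log2 scale (edgeR adjusted p = 0.0023), with elongation zone values of 97.4 to 105.5 TPM in long container, 12.6, 61.3 and 66.5 TPM in long rhizotron, 30.5 to 37.4 TPM in medium container and 95.6 to 97.1 TPM in medium rhizotron taproots. In the elongation zones the rhizotron values were thus above the container values in medium taproots and below them in long taproots. *GERL1* differed by −1.32 ± 0.25 (adjusted p = 0.0018), *ACO1* by 0.38 ± 0.10 (adjusted p = 0.018) and *CERD* by 0.21 ± 0.07 (adjusted p = 0.035). *PIN2* was nearly absent from elongation zones at 0 to 1.83 TPM. With near-identical libraries merged no gene passed against the elongation zones in edgeR, and 2041 genes had an unadjusted p under 0.05, while DESeq2 on the separate libraries called 4643.

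One more form of cultivation, in which long-class seedlings were moved from containers to rhizotrons, was sampled for lateral roots of the long class. These seedlings were moved in the spring after their first season and so were older than those of the 12 libraries, and age and transplanting cannot be told apart. The comparison would share its containers with the long class, so the values are set side by side without a test, and 1 of the 3 libraries lay 0.23 from the other 2. In replicates 1, 2 and 3 of the transplanted roots, *GST* was at 36.7, 32.97 and 35.9 TPM and *PIN2* at 12.6, 12.4 and 8.16 TPM, both below the long rhizotron libraries. *PCC13* was at 33.3, 31.6 and 111.2 TPM and *ACO1* at 101.5, 107.7 and 252.5 TPM. For these genes replicates 1 and 2 lay between the long container and the long rhizotron libraries, and replicate 3 above both. *GERL1* was at 251.7, 244.9 and 121.8 TPM, higher than in any of the 12 libraries.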

How the data were processed

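Pedunculate oak root libraries (stranded mRNA, paired-end Illumina) were trimmed, cleared of rRNA, aligned to the oak genome and assembled into a merged transcriptome by the authors, who then estimated abundance with RSEM on Bowtie2 alignments. The deposited tables give, per library, expected counts and TPM for 35397 genes. None of these identifiers matched the RefSeq table at hand, and 11 were named through the study's primer table. Groups came from the sample titles.

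Rounding made the expected counts whole. Genes of low count were removed by edgeR's filter at a minimum count of 10, and the rest scaled by TMM and tested with edgeR 4.0.16 (R 4.3.3, glmQLFit and glmQLFTest, Benjamini-Hochberg), with the matched pair as covariate or with 1 coefficient per group for single classes and differences. DESeq2 1.42.0 and limma 3.58.1 on log2(TPM + 1) were alternatives. The fits were tested on simulated data: of 200 genes changed by 1 on the log2 scale among 24454 genes 65.0% were recovered, and of 200 changed by 2 among 24496 genes 89.5%. Of the genes called, 5.80% and 7.73% were false, above the 5% aimed at. The simulated libraries were independent draws with no class effect, no near-identical libraries and no library that stands apart. These shares therefore cannot be carried over to the calls in the real libraries.

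The same numbers of replicates occur in all groups, but same-numbered rhizotron and container libraries deviated together by a correlation of only −0.02 to 0.07 across genes, so the numbers were not taken as pairs. Distances used 5147 genes of 1000 to 10000 mean counts, and libraries closer than 0.05 were called near-identical. Lists hold genes with an adjusted p under 0.05 and an absolute log2 fold change of at least 1 in libraries outside the 12. Named genes were the 11 primer genes and, per comparison, the largest changes with an adjusted p under 0.05 and an average log2 CPM of at least 5, with the 5 most abundant called genes a direction, the largest changes shared with Dataset 1 and genes seen in one cultivation alone. The groups, lists and rules were chosen with earlier results of these data known. Leaving out medium container replicate 1 in comparisons other than the main one, and doing so together with merging, were added after seeing the data. The labels give no sequencing batch or date. The depth, 26779871 counts or more per library, limits only genes of a few counts.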

Additional observations from a re-analysis of the deposited data

Results flagged for a closer look

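The rhizotron effect differed between long and medium lateral roots in 4263 genes. Of the genes below, *GERL1* and MSTRG.6754 passed in all 12 alternatives and *WRKY* and MSTRG.15472 in 11. *PCC13* passed in 9 and *ACO1* in 8. On the log2 scale the long minus medium difference was 1.97 for *GERL1*, 1.24 for *WRKY*, 0.36 for *ACO1*, −0.85 for *PCC13*, 2.90 for MSTRG.15472 and −3.07 for MSTRG.6754, each by the interaction term of edgeR's fit.

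The effect differed between lateral roots of Dataset 2 and Dataset 1 in 8244 genes. The Dataset 2 minus Dataset 1 difference was 2.99 for *PCC13*, −1.11 for *GERL1*, 2.81 for MSTRG.21759 and −4.39 for MSTRG.7733. That of *GERL1* passed in only 7 of 12 alternatives, with log2 values from −1.298 to −0.498, and the others passed in all 12.

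Between lateral roots and taproot elongation zones it differed in 3813 genes, by 1.53 for *PCC13*, 0.38 for *ACO1*, 0.21 for *CERD*, −1.32 for *GERL1*, 2.67 for MSTRG.7233 and −4.49 for MSTRG.6597. Against elongation zones MSTRG.6597 passed in 10 of 12 alternatives and *GERL1* in 9. *PCC13*, *ACO1* and MSTRG.7233 passed in 8 and *CERD* in 7. Between lateral roots and taproot meristematic zones the effect differed in 9583 genes. That difference was 4.11 for *PCC13*, 1.32 for *ACO1*, 0.74 for *GERL1*, 0.71 for *WRKY*, 0.50 for *CERD*, −1.41 for *ACO5*, −1.48 for *PIN2*, −2.03 for *GST*, 3.97 for MSTRG.34600 and −5.44 for MSTRG.19105. Against meristematic zones *PCC13*, *ACO1*, MSTRG.34600 and MSTRG.19105 passed in all 12 alternatives, and *CERD* and *GST* in 11. *PIN2* passed in 10, *GERL1* and *ACO5* in 9 and *WRKY* in 8. MSTRG.19105 was at 48.4 to 67.7 TPM in the 6 container lateral root libraries and 0.28 to 1.69 TPM in the 6 rhizotron libraries.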

How the results depend on the processing

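Of the values of named genes under all alternatives, 872 kept their direction and side of the threshold, 42 passed the threshold only under the alternative, 92 no longer passed and 27 changed sign. The cause of these changes was not tested, apart from fewer samples where libraries were merged or left out.

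With an added fold change of at least 2, the calls were 1790 over both classes, 2173 in long and 2937 in medium roots, 2341 for their difference, 1248 for length, 1666 in Dataset 1, and 3363, 1782 and 3153 for the differences from Dataset 1, elongation zones and meristematic zones. With near-identical libraries merged, the same order gave 302, 470, 270, 90, 36, 1838, 1996, 0 and 824 calls. With medium container replicate 1 also left out it gave 4399, 9713, 11737, 7037 and 456 calls for Dataset 2, and 3826, 0 and 3974 for the 3 differences, where the 0 calls of edgeR came with 2823 genes at an unadjusted p under 0.05. Leaving out that library alone gave 12097, 12557, 15619 and 11390 calls and 6372 for the difference from elongation zones. Fitting the 6 libraries of a class alone gave 11298 calls in long and 3964 in medium roots.

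Leaving out 1 library at a time gave 5789 to 12097 calls over both classes. The other comparisons lost 1 replicate number from every group at a time or, except in Dataset 1 alone, only medium container replicate 1. They gave 1094 to 12557 calls in long and 2121 to 15687 in medium roots, and 767 to 11950 for their difference. The calls were 472 to 7181 for length and 1138 to 2920 in Dataset 1. For the 3 further differences they were 2649 to 10395, 515 to 7554 and 2458 to 12231. Same-numbered libraries deviated together by correlations of −0.02 to 0.07, which cannot exclude that they share more than a number. The replicate block gave 6419 calls over both classes.

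Sign changes touched small log2 fold changes. Below, without single replicates means that 1 replicate number was left out of every group, or medium container replicate 1 alone. Over both classes *WRKY* had 0.127 with libraries merged, 0.209 with medium container replicate 1 also left out, and −0.111 to 0.087 without single libraries, and *G3OX* had −0.052 to 0.116 without single libraries. In long roots *G3OX* had 0.015 with limma, 0.017 merged, 0.006 merged without medium container replicate 1, 0.033 without TMM, and −0.084 to 0.047 without single replicates, and *UBQ* had −0.074 to 0.073. In medium roots *ACO5* had 0.000 in DESeq2, 0.013 in limma, 0.185 merged, 0.035 with the replicate block and −0.319 to 0.165 without single replicates, the lowest without medium container replicate 1, and *G3OX* had −0.079 to 0.348. The class difference of *G3OX* was −0.432 to 0.126 without single replicates, and that of *GST* −0.612 to 0.081, the highest without medium container replicate 1, with 0.091 when libraries were merged as well.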
